A study of Mus musculus with 12 samples.

Results

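The levels of 9 noncoding genes, of the 38898 genes in the deposited tables, were followed in Rd76-9 tumors. They fall into 2 classes by their known products. Malat1, Neat1 and Kcnq1ot1 (3 genes) make long RNAs that stay in the nucleus. Gas5, Snhg1, Snhg3, Snhg6, Snhg8 and Snhg12 (6 genes) are hosts of small nucleolar RNAs (snoRNAs). The genes were chosen by name, and all 9 passed the filter on low counts, which kept 17602 genes.

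Rd76-9 cells are mouse cells of embryonal rhabdomyosarcoma (RMS), a muscle-lineage cancer. Their source was a tumor that a chemical carcinogen had raised in a female mouse of the C57BL/6 strain. The cells were injected into the flank of wild type mice labelled C57/Bl6J, so all groups share 1 tumor line and 1 host strain. RNA came from bulk tumors taken at day 16, 3 from each of 4 groups with 1 tumor per mouse. Vehicle-treated mice (tumors m1, m2 and m3) received saline and empty nanoparticle, although 1 label of these tumors also names RCM1 nanoparticle, and their group was taken from the title. Vincristine (VCR), a drug that blocks microtubule assembly, was given at 0.25 mg/kg (m4, m5 and m6). RCM1-NPFA is RCM1, an inhibitor of the transcription factor FOXM1, carried in nanoparticles with folic acid, and was given at 8 µg per injection (m7, m8 and m9). The last group received both drugs at these doses (VCR+RCM1-NPFA, m10, m11 and m12). The study's methods describe the hosts as young adults by their age in weeks, and the labels give neither their sex nor a batch.

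Malat1 RNA gathers in nuclear speckles, bodies rich in splicing factors, and is among the most abundant long noncoding RNAs of mammalian cells. Neat1 RNA is the scaffold of paraspeckles. Its long isoform builds these nuclear bodies and its short isoform is not sufficient to do so. Kcnq1ot1 is transcribed from the paternal allele in antisense direction to Kcnq1, and silences neighbouring imprinted genes on that chromosome. The snoRNA host genes work in another way, since their introns are processed into snoRNAs that guide the modification of ribosomal RNA. Their spliced exons are exported, carry short reading frames and are known substrates of nonsense-mediated decay.

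The annotation of GRCm38.p6 places the 3 long RNAs on the reverse strand. Malat1 lies at chr19:5795690-5802672 as 1 exon of 6983 bases in RefSeq. Neat1 lies beside it at chr19:5824708-5845480, with a short isoform of 3190 bases and a long isoform of 20771 bases in RefSeq. Kcnq1ot1 lies at chr7:143213111-143296547 as 1 unspliced exon of 83437 bases inside Kcnq1. The libraries were described as non-stranded, so reads of unspliced Kcnq1 RNA and of Kcnq1ot1 cannot be told apart. The hosts are short. Gas5 lies at chr1:161034601-161038539 and overlaps Zbtb37, Snhg6 lies at chr1:9942025-9944118 and overlaps Mcmdc2, and Snhg1 lies at chr19:8723487-8726326. Snhg3 lies at chr4:132351933-132353686, Snhg12 at chr4:132308678-132311024 and Snhg8 at chr3:123507552-123508336. The mean effective length, which is the length kallisto uses to scale reads, was 6811 bases for Malat1 and 83265 bases for Kcnq1ot1. Among the hosts it ran from 235 bases for Snhg6 to 613 bases for Snhg8.

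The 3′ ends of the nuclear RNAs are shown because the libraries were made from poly-A selected RNA. Malat1 and the long Neat1 isoform are known to end without a classical poly-A tail, at a cut made by RNase P just before a tRNA-like RNA. Reads of both therefore measure only what the selection kept. The first line gives the 60 bases of the GENCODE transcript of Malat1 that precede the tRNA-like mascRNA (chr19:5795982-5796041, reverse strand). The next gives the last 60 bases of the long Neat1 isoform (chr19:5824708-5824767), and the last the end of the short isoform annotated by GENCODE (chr19:5842307-5842366). Capitals mark the longest identical end of the first 2 sequences, 11 bases, and the AATAAA signal of the short isoform.
Malat1: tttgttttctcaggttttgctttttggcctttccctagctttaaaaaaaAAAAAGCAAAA
Neat1 long isoform: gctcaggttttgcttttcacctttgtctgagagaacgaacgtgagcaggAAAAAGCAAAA
Neat1 short isoform: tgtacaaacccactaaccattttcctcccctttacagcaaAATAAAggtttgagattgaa

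Neither of the first 2 windows holds AATAAA. Of the last 20 bases, 80% are A in Malat1, 55% in the long Neat1 isoform and 45% in the short one. The mascRNA itself (chr19:5795924-5795981, 58 bases) had 0 reads in every tumor. It lies inside the RefSeq Malat1 transcript, so reads from that stretch can be assigned to Malat1. The 0 therefore does not measure the level of mascRNA.

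The start sites of the hosts are shown because snoRNA host genes are known for a pyrimidine tract at the start of transcription, shared with ribosomal protein genes. RefSeq windows of GRCm38.p6 were found for 7 of the 9 genes, not for Neat1 and Snhg6. Each line gives 20 bases before and 25 bases from the annotated start, in the direction of transcription. Capitals mark the longest run of C and T whose first base lies within 10 bases of the start, on the transcribed strand only. Gas5 has 2 annotated starts, of which the second is shown (chr1:161035146-161035190). The others are at chr19:8723467-8723511 (Snhg1), chr4:132353662-132353706 (Snhg3), chr3:123508312-123508356 (Snhg8), chr4:132308658-132308702 (Snhg12) and chr19:5802648-5802692 (Malat1).
Gas5: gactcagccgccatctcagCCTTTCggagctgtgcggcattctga
Snhg1: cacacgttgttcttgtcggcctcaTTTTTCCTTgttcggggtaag
Snhg3: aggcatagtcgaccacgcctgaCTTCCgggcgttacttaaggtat
Snhg8: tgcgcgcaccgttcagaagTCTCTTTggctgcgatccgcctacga
Snhg12: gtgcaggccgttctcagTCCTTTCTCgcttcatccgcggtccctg
Malat1: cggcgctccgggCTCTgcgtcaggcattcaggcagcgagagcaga

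The runs are 9 bases in Snhg1 and Snhg12, a length reached by 6.87% of the 32851 mouse windows. Snhg8 has a run of 7 bases (16.2% of windows), Gas5 of 6 bases at its second start (25.3%) and of 3 bases at its first (81.6%), and Snhg3 of 5 bases (40.7%). The run is 4 bases in Malat1, a length reached by 60.7% of windows, and 2 bases in Kcnq1ot1 (96.7%). A C followed by 4 or more C or T bases, beginning within 10 bases of the start, was found in 4 of the 5 hosts and 0 of the 2 long RNAs with a window, and in 30.7% of all windows. Hosts were counted by gene, and Gas5 met this rule at its second start but not at its first. The share counts each window singly, 32851 windows of 27025 genes. A stricter form, a C followed by 6 or more C or T bases beginning within 10 bases of the start, was met by 1 of the 5 hosts, Snhg12, and by 0 of the 2 long RNAs. Of all windows, 12.2% met it.

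Between 29342195 and 32108055 reads were assigned per tumor. Levels between genes were compared in TPM, the share of transcripts after division by length, and levels between tumors in CPM, the TMM-normalized share of reads. A pair of library features differed between tumors. Reads of the Y-linked genes Ddx3y, Kdm5d and Eif2s3y came to 394 or more in 7 tumors and to 20 or fewer in the other 5. The 7 were 1 of the vehicle group and 2 of each treated group. The tumor line came from a female mouse and the labels do not give the sex of the hosts. The source of the Y-linked reads was not tested. Skeletal muscle fibre markers (15 genes) summed to 281 to 405 TPM in vehicle-treated tumors, 2075 to 12104 after VCR and 743 to 5377 after the combination. After RCM1-NPFA the sums were 357, 498 and 20520 TPM, of which the lowest lay inside the vehicle range. The highest values were in m9 and m5. In bulk tumors, RNA of the tumor line and of host muscle cannot be told apart. Of 10 rhabdomyosarcoma and myoblast markers, Myf5 stood at 45.2 to 59.9 TPM and Cdh15 at 78.1 to 105 TPM in vehicle-treated tumors. Myod1 and Myog, which define most RMS, were at or near 0 there, with at most 0.0306 and 0.0767 TPM. Of the 9 markers tested, edgeR called 3 higher after VCR, beside 5.55% of all genes called in either direction. These were Myod1, Myog and Des, the muscle intermediate filament (adjusted p = 0.0819, 0.0693 and 0.0908 in edgeR). Des stood at 4.45 to 5.88 TPM with vehicle, 74.9 to 217 TPM after VCR, 6.41 to 317 TPM after RCM1-NPFA and 29.5 to 113 TPM after the combination. After VCR Myod1 stood at 1.15 to 2.16 TPM and Myog at 1.72 to 2.44 TPM, while Myf5 (41.0 to 56.1 TPM) and Cdh15 (110 to 116 TPM) were not called.

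Per length, Gas5 was the most abundant of the 9 RNAs in vehicle-treated tumors, at 1482 ± 139 TPM (SD, n = 3). Neat1 followed at 491 ± 146 TPM, Snhg1 at 418 ± 52.9 TPM and Snhg3 at 338 ± 30.8 TPM, and the ranges of Neat1 and Snhg1 overlapped, as did those of Snhg1 and Snhg3, but not those of Neat1 and Snhg3. Snhg6 was next at 211 ± 15.8 TPM. Snhg12 (124 ± 17.6 TPM) and Snhg8 (122 ± 21.9 TPM) could not be told apart. Malat1 was lower than every host at 42.0 ± 6.38 TPM, a value that covers only what the poly-A selection kept. Kcnq1ot1 was far below all others at 0.351 ± 0.0614 TPM. As a share of reads the order of the classes turns. The 3 long RNAs took 0.0903% to 0.147% of the reads of a vehicle-treated tumor, and the 6 hosts 0.0439% to 0.0546%. This turn rests on Neat1, with a vehicle mean of 945 CPM. Malat1 had a vehicle mean of 178 CPM and Kcnq1ot1 of 18.1 CPM, beside 263 CPM for Gas5 alone.

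**Figure D1:**
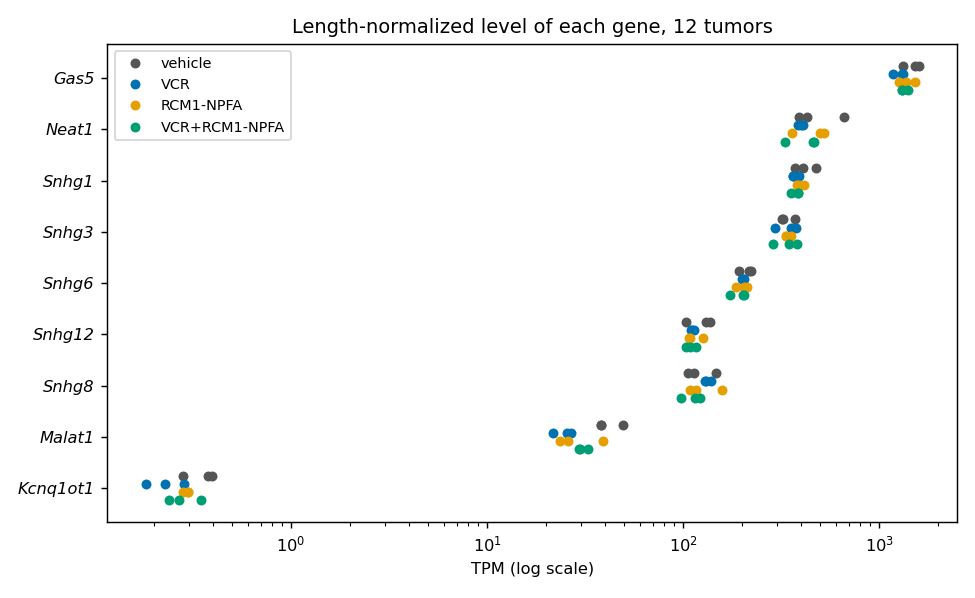
Level of each of the 9 genes per transcript length, in TPM on a log axis, with 1 point per tumor and 1 row of points per treatment group (3 tumors each). Gas5 lies above all other genes in every tumor, the other hosts and Neat1 lie between 97.5 and 658 TPM, and Malat1 and Kcnq1ot1 lie below them.

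Over the 12 tumors of all 4 groups, Malat1 and Neat1 varied more than most hosts did. The coefficient of variation of the CPM values over all tumors was 24.1% for Malat1, 22.3% for Neat1 and 17.8% for Kcnq1ot1. It was 8.71% to 10.95% for 5 hosts and 18.4% for Snhg8. The median over the 9982 genes with a mean of at least 10 CPM was 9.75%.

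The first comparison asked which of these RNAs differed after VCR alone. Malat1 and Kcnq1ot1 fell, by 0.71 and 0.54 on the log2 scale, while Neat1 and the 6 hosts did not pass the test. Malat1 counts stood at 202, 157 and 176 CPM in the vehicle-treated tumors and at 114, 101 and 113 CPM after VCR. Every VCR-treated tumor was therefore below every vehicle-treated tumor. Kcnq1ot1 counts were 18.9, 19.8 and 15.8 CPM with vehicle and 12.4, 10.3 and 14.7 CPM after VCR. These groups did not overlap either, but the highest VCR-treated tumor (m6) and the lowest vehicle-treated tumor (m3) lay close together. Neat1 had 781, 713 and 1341 CPM with vehicle and 808, 802 and 750 CPM after VCR. The Neat1 groups overlapped, and tumor m3 set the vehicle mean apart from the VCR values.

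In edgeR's quasi-likelihood test with Benjamini-Hochberg adjustment over all genes, the log2 fold change of Malat1 was -0.71 ± 0.16 (SE), with an adjusted p of 0.0756. That of Kcnq1ot1 was -0.54 ± 0.15, with an adjusted p of 0.0949. Of the 9 genes 2 were called, both lower. Of all genes tested, 5.55% were called and 2.75% were called lower, at a threshold of 0.1. Groups that did not overlap, with VCR below, were found for 2 of the 9 genes and for 10.9% of all genes. DESeq2, which called 14.1% of its tested genes, gave adjusted p-values of 0.00141 for Malat1 and 0.0149 for Kcnq1ot1 and called no other of the 9. The same 2 genes were called by limma-voom (adjusted p = 0.0809 and 0.0982), beside 3.87% of all genes. A lower fold change than that of Malat1 was seen in 3.71% of all tested genes, and than that of Kcnq1ot1 in 6.54%.

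Both calls sat close to the threshold. The Malat1 call was lost without m1 (adjusted p = 0.138), m2 (0.156), m4 (0.221), m5 (0.305), m11 (0.118) or m12 (0.101), with log2 fold changes of -0.81 to -0.61 in edgeR fits without 1 tumor. The Kcnq1ot1 call was lost without m1 (0.169), m2 (0.214), m4 (0.236), m5 (0.346), m7 (0.107), m8 (0.101), m11 (0.138) or m12 (0.115), with log2 fold changes of -0.70 to -0.42 in edgeR.

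The libraries also differed between these groups in transcript length, muscle fibre RNA and Y-linked reads. Genes of 4000 to 8000 bases, the class of Malat1, had a median log2 fold change of -0.14 after VCR, and 71.5% of these 3878 genes had a negative value. Genes over 8000 bases, the class of Kcnq1ot1, had a median of -0.23, with 79.3% of 944 genes negative. In genes under 500 bases, the class of 5 hosts, the median was 0.17. With a spline of transcript length in the fit, Malat1 had a log2 fold change of -0.62 (adjusted p = 0.134) and Kcnq1ot1 of -0.47 (adjusted p = 0.181) in edgeR. Without m5 and m9, the tumors with the most muscle fibre RNA, the values were -0.66 for Malat1 (adjusted p = 0.168) and -0.42 for Kcnq1ot1 (adjusted p = 0.316) in edgeR. With a term for the tumors with Y-linked transcripts, they were -0.67 (adjusted p = 0.105) and -0.50 (adjusted p = 0.145). Leukocyte markers (12 genes) summed to 1925 to 2698 TPM with vehicle and 2143 to 2629 TPM after VCR, and endothelial markers (10 genes) to 101 to 148 TPM and 151 to 190 TPM. Keratinocyte markers (8 genes) summed to at most 4.33 TPM with vehicle and 3.72 TPM after VCR, and 4 of them, Krt1, Ivl, Dsg3 and Krt15, had 3 or fewer reads in every tumor. The parts of endothelial RNA and of the rise in Des, Myod1 and Myog in the result were not tested. In bulk tumors, fewer cells that express an RNA and less of it per cell cannot be told apart.

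**Figure D2:**
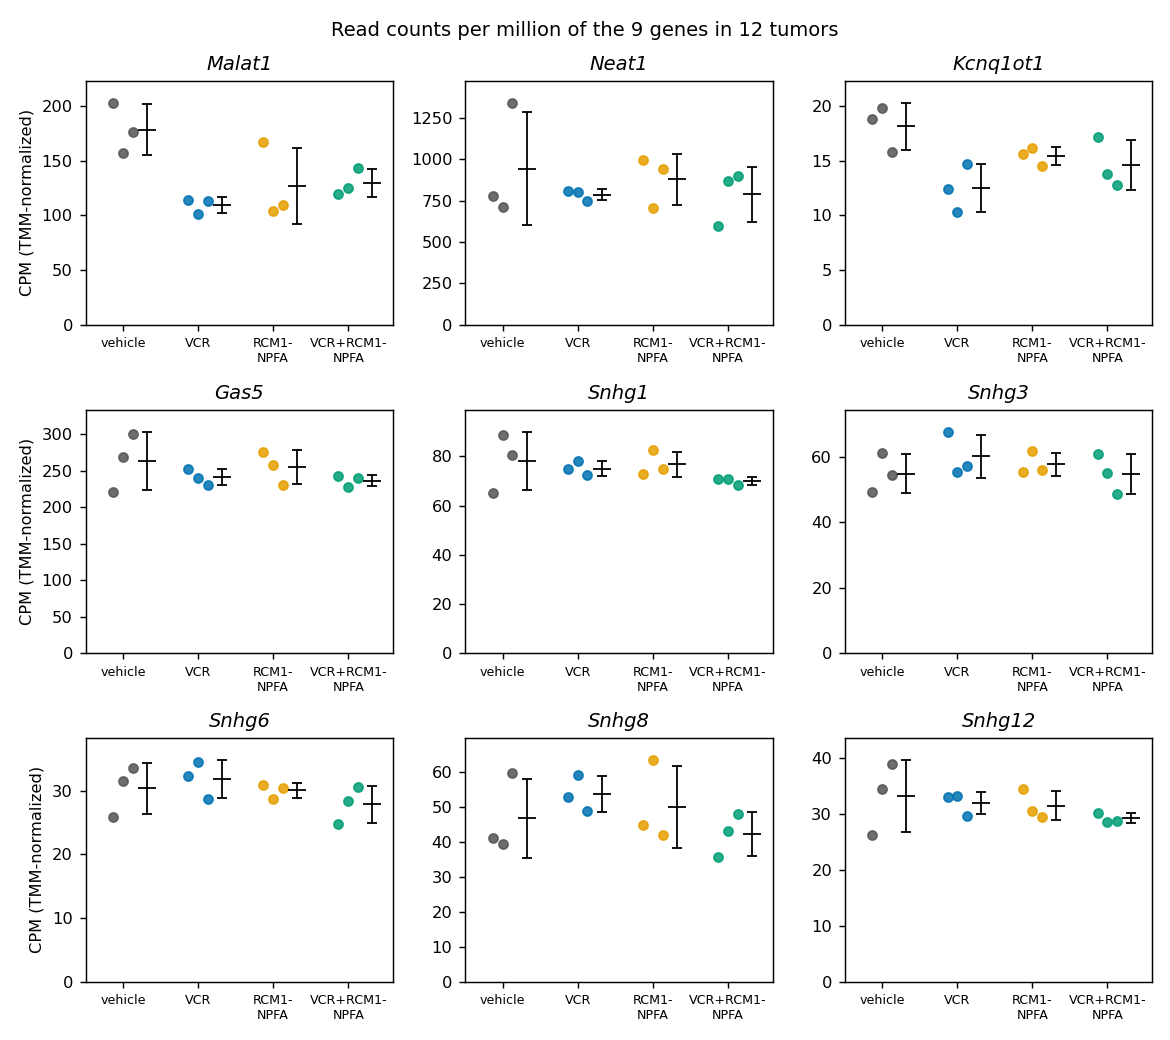
CPM of each of the 9 genes by treatment group, with 1 point per tumor and the group mean with its SD (n = 3) beside the points, all axes starting at 0. Malat1 lies between 157 and 202 CPM in vehicle-treated tumors and between 101 and 114 CPM after VCR, while the groups of every host overlap with vehicle.

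The hosts gave values on both sides of 0 after VCR. Gas5, a growth-arrest RNA that hosts C/D box snoRNAs, had 221, 268 and 300.4 CPM with vehicle and 253, 240 and 231 CPM after VCR, a log2 fold change of -0.13 ± 0.11 (SE). The 3 VCR-treated tumors lay within the vehicle range. Snhg1, a host of C/D box snoRNAs, had 65.2, 88.7 and 80.4 CPM with vehicle and 74.9, 78.1 and 72.2 CPM after VCR (-0.06 ± 0.10). Snhg12 had 26.3, 34.5 and 38.9 CPM and 33.1, 33.2 and 29.7 CPM (-0.05 ± 0.13). For both genes, too, every VCR-treated tumor was within the range of the vehicle-treated tumors, and m1 was the lowest of the vehicle group in all 3. Values above 0 were found for Snhg3, which hosts the H/ACA snoRNAs Snora73a and Snora73b (0.13 ± 0.11), for Snhg6 (0.07 ± 0.11) and for Snhg8 (0.20 ± 0.19). The Snhg8 value ran from 0.0763 to 0.41 in fits without 1 tumor. The smallest adjusted p-value of a host in edgeR was 0.506. The median log2 fold change was 0.01 over the 6 hosts and -0.54 over the 3 long RNAs, beside 0.00163 over all tested genes. The host values depended on length handling. With the spline of length all 6 were below 0, at -0.37 for Gas5, -0.30 for Snhg1 and Snhg12, -0.10 for Snhg3, -0.18 for Snhg6 and -0.04 for Snhg8. The medians were then -0.24 over the hosts, -0.47 over the long RNAs and -0.08 over all tested genes, so the classes lay closer together than without it.

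**Figure D3:**
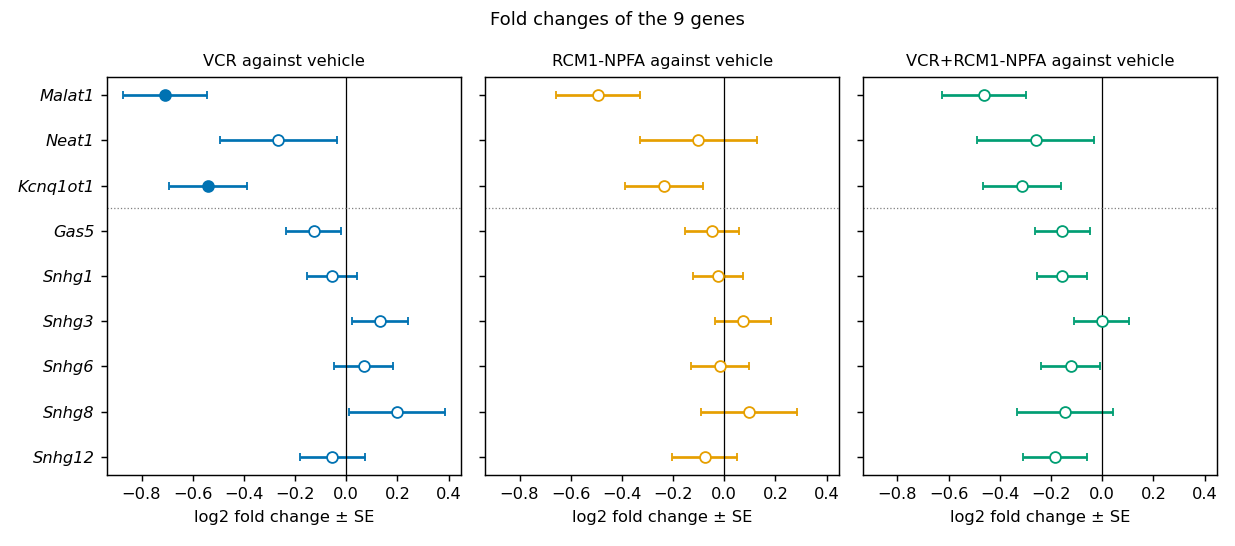
Log2 fold change with its SE of each gene in the 3 comparisons with vehicle, from edgeR, with filled points for genes called at an adjusted p under 0.1 and a dotted line between the 3 long RNAs and the 6 hosts. Malat1 (-0.71) and Kcnq1ot1 (-0.54) after VCR are the filled points, and the 3 long RNAs have negative values in each of the 3 panels.

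The second comparison asked the same of RCM1-NPFA alone. Of the 9 genes 0 were called by edgeR, as were 0% of all genes. At an unadjusted p under 0.05 it was 1 of the 9, Malat1, and 9.78% of all genes. DESeq2 called 0 of the 9 and 1.5% of all its tested genes, and limma-voom 0 of the 9 and 0% of all. Malat1 had 167, 104 and 109 CPM after RCM1-NPFA, a log2 fold change of -0.49 ± 0.16 (SE) with an adjusted p of 0.423. Tumor m7 lay inside the vehicle range, and the other 2 tumors lay at the level of the VCR group. Kcnq1ot1 had 15.6, 16.2 and 14.5 CPM (-0.23 ± 0.15), and Neat1 had 997, 704 and 940 CPM (-0.10 ± 0.23). Both overlapped with vehicle. The hosts ran from -0.08 (Snhg12) to 0.10 (Snhg8), with a median of -0.02. Snhg8 was highest of all 12 tumors in m8, at 63.5 CPM. No gene of the 9 had all RCM1-NPFA tumors below vehicle, which held for 5.86% of all genes.

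The third comparison set the combination against vehicle. Again 0 of the 9 genes and 0% of all genes were called by edgeR. DESeq2 called 0 of the 9 and 0.37% of all its tested genes, and limma-voom 0 of the 9 and 0% of all. Malat1 alone had an unadjusted p under 0.05, beside 7.31% of all genes. Its counts were 120, 125 and 144 CPM in m10, m11 and m12, a log2 fold change of -0.46 ± 0.16 (SE) with an adjusted p of 0.666. All 3 values lay below the vehicle range, which was the case for 1 of the 9 genes and for 5.53% of all genes. Kcnq1ot1 had 17.2, 13.8 and 12.8 CPM (-0.31 ± 0.15) and Neat1 had 600, 869 and 899 CPM (-0.26 ± 0.23). Both overlapped with vehicle, and m10 was the highest of its group for Kcnq1ot1 and the lowest of all 12 tumors for Neat1. All 9 genes had negative values, with a median of -0.15 over the hosts beside 0.00157 over all tested genes. The hosts ran from -0.18 (Snhg12) to -0.00180 (Snhg3). These 3 comparisons share their vehicle-treated tumors, so a high or low vehicle tumor moves all 3 values of a gene together.

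The combination was also compared with each drug. Against VCR, Malat1 stood higher by 0.25 ± 0.16 (SE) on the log2 scale, with each combination tumor above each VCR tumor (the nearest were 120 and 114 CPM), and Kcnq1ot1 by 0.23 ± 0.15 with overlapping groups. Groups that did not overlap with the combination above were found for 1 of the 9 genes and 6.03% of all genes. With the combination below it was 2 of the 9, Snhg1 and Snhg8, and 6.87% of all genes. Snhg8 had the largest value among the hosts, -0.34 ± 0.19, at 35.7, 43.2 and 48.0 CPM in the combination and 53.0, 59.2 and 49.0 CPM after VCR. None of these passed the edgeR test (smallest adjusted p = 0.855), and 0% of all genes were called. At an unadjusted p under 0.05 it was 0 of the 9 and 5.26% of all genes. Against RCM1-NPFA, the 9 values ran from -0.24 (Snhg8) to 0.03 (Malat1), and edgeR called 0 of the 9 genes and 0% of all genes, with 0 of the 9 and 2.07% of all genes at an unadjusted p under 0.05. Snhg1 alone had every combination tumor below every RCM1-NPFA tumor, which held for 2.63% of all genes, and 0 of the 9 had them above (3.25% of all genes). DESeq2 and limma-voom called 0 of the 9 and 0% of all genes in both comparisons.

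The interaction of the drugs asks whether the effect of both together differs from the sum of each alone on the log2 scale. For Malat1 it was 0.74 ± 0.23 (SE), with an adjusted p of 0.293 in edgeR (0.00808 unadjusted), which called 0 of the 9 genes and 0% of all genes. At an unadjusted p under 0.05 it was 1 of the 9, Malat1, and 13.8% of all genes. The combination tumors had a mean of 129 CPM, the VCR tumors of 109 CPM, the RCM1-NPFA tumors of 127 CPM and the vehicle-treated tumors of 178 CPM. DESeq2 called the Malat1 interaction, with an adjusted p of 0.0724, and 2.78% of all its tested genes, and limma-voom did not (adjusted p = 0.380, 0% of all genes called). Kcnq1ot1 had an interaction of 0.46 ± 0.22 (adjusted p = 0.370) and Neat1 of 0.11 ± 0.32. Among the hosts the values ran from -0.44 for Snhg8 to 0.02 for Gas5, with a median of -0.13.

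**Figure D4:**
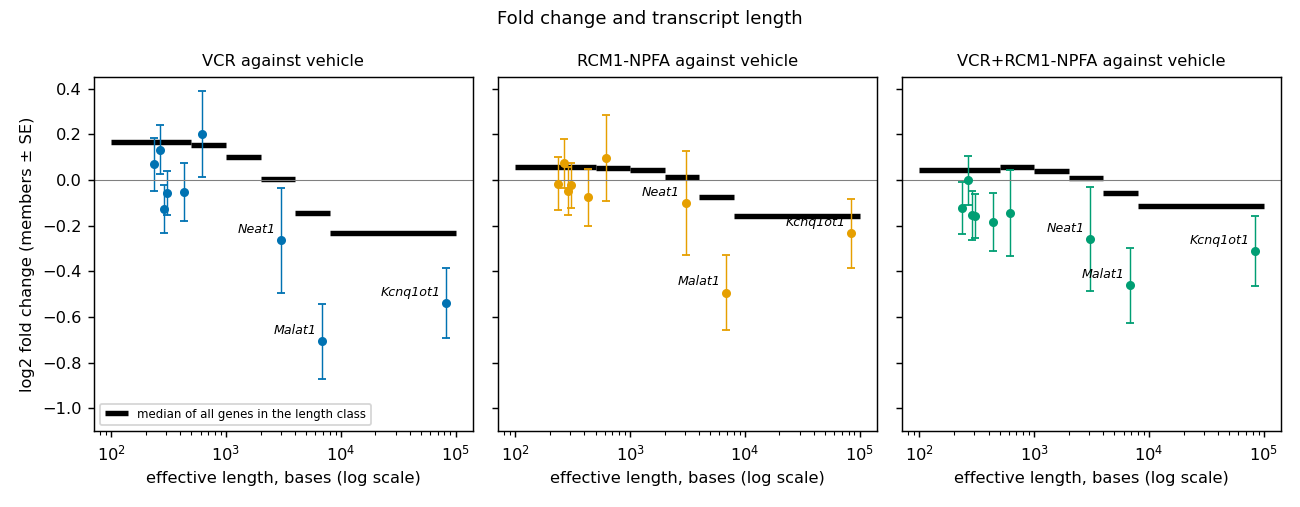
Log2 fold change against effective length in bases (log axis) for the 3 comparisons with vehicle, with a point and SE for each of the 9 genes and a black bar for the median of all tested genes in each of 6 length classes. After VCR the bars step from 0.17 in genes under 500 bases to -0.23 in genes over 8000 bases, and Malat1 and Kcnq1ot1 lie below the bars of their classes.

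Isoforms were resolved for Neat1 and Gas5. In the poly-A selected RNA, the short Neat1 isoform carried 99.8% to 99.9% of Neat1 TPM in every tumor. The long isoform, known to lack a classical poly-A tail, carried 0.0781% to 0.189%, or 132 to 324 estimated reads. The long isoform stood at 0.805, 0.571 and 0.514 TPM with vehicle, 0.442, 0.682 and 0.527 TPM after VCR, 0.561, 0.314 and 0.484 TPM after RCM1-NPFA and 0.576, 0.473 and 0.452 TPM after the combination. The groups overlapped, and m1 held the highest value. The log2 ratio of long to short isoform, with a pseudocount of 0.1 TPM, was -9.37 ± 0.62 with vehicle (SD, n = 3). It differed from vehicle by 0.11 after VCR, -0.33 after RCM1-NPFA and -0.06 after the combination, and an exact two-sided permutation test gave p = 0.9, 0.4 and 0.9 (0.9 each after adjustment over 3 comparisons). The smallest p that 3 against 3 tumors can give is 0.1. Since the long isoform contains the whole region of the short one, the split rests on reads beyond the short isoform's end.

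Gas5 was spread over 8 RefSeq transcripts. A transcript of 460 bases held 55.3% to 60.3% of its TPM, one of 501 bases 19.1% to 25.2% and one of 423 bases 10.03% to 14.3%. Of the other 5, one of 392 bases held 3.59% to 5.69%, and each of the remaining 4 held at most 1.79% in any tumor. The main transcript was thus the same in all 12 tumors. Snhg1, Snhg3, Snhg8 and Snhg12 each had 1 transcript with a whole number of reads in every tumor, within a tolerance of 0.01 reads, which leaves no sign of reads divided with another transcript. Counts of Malat1, Kcnq1ot1 and Snhg6 were not whole, so part of their reads was shared with other transcripts.

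The snoRNAs inside the hosts were listed as genes of their own, which gave a second readout of the same loci. The 6 hosts hold 24 annotated snoRNAs, and 18 of them had enough reads to be tested. They were 8 of 8 in Snhg1, 5 of 8 in Gas5, 3 of 4 in Snhg12 and 2 of 2 in Snhg3. None were in Snhg6 (Snord87) or Snhg8 (Snora24), whose snoRNAs had 0 reads in every tumor. The RefSeq transcript of Snhg8 is as long as its gene, 785 bases, and contains Snora24. Reads from Snora24 can therefore be assigned to Snhg8, and its 0 does not measure its level. Together the 18 tested snoRNAs had 1771 to 2338 reads per tumor. Snord22 in Snhg1 had 187 to 326 reads, Snord78 in Gas5 166 to 297 and Snora73b in Snhg3 135 to 193. A snoRNA read can come from the snoRNA itself or from a host RNA that keeps the intron, and 21 of the 24 lie inside an exon of at least 1 GENCODE host transcript. These sources cannot be told apart here.

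Of the 18 tested, 0 hosted snoRNAs were called by edgeR or DESeq2 in a comparison with vehicle, and 2, 1 and 0 had an unadjusted p under 0.05 after VCR, RCM1-NPFA and the combination. The shares of all genes were 22.1%, 9.78% and 7.31% at that p, and 5.55%, 0% and 0% were called by edgeR and 14.1%, 1.5% and 0.37% by DESeq2. After VCR, 15 of the 18 had a value above 0, with a median log2 fold change of 0.20 and a range from -0.14 to 0.75. The largest were in Snhg1 (0.75, adjusted p = 0.164) and Snord99 in Snhg12 (0.66, adjusted p = 0.113). After RCM1-NPFA 15 of 18 were above 0 (median 0.12), and after the combination 13 of 18 (median 0.06). The snoRNAs of 1 host share its transcript and are not replicates. Their genes are under 500 bases, and genes of that length had a median of 0.17 after VCR, 0.06 after RCM1-NPFA and 0.05 after the combination. The hosts Gas5, Snhg1 and Snhg12 themselves had values below 0 in each of the 3 comparisons.

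**Figure D5:**
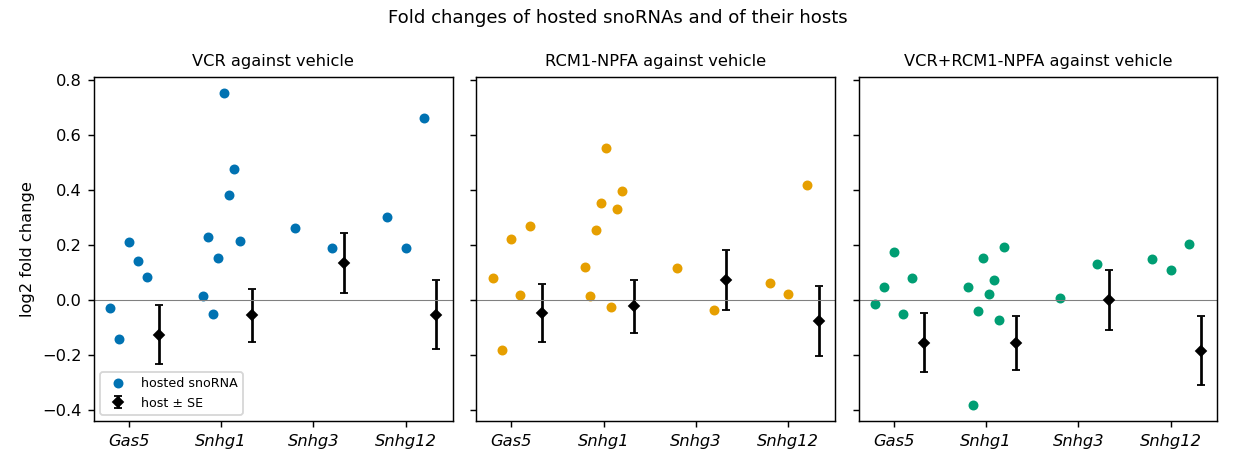
Log2 fold change against vehicle of the 18 tested snoRNAs, grouped by host gene, with the host's own value and SE as a black diamond, in the 3 comparisons. After VCR the snoRNAs range from -0.14 to 0.75 and most lie above the diamond of their host.

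A set of 4 pairs of these genes was tested for correlation of log2 CPM over the 12 tumors, which belong to 4 groups. Gas5 and Snhg1 gave Pearson r = 0.63 and Spearman rho = 0.64 (permutation p = 0.0271 and 0.0288, adjusted over 4 pairs 0.101 and 0.115). With the group means subtracted r was 0.57 and rho was 0.35. Without the 2 tumors farthest from the Gas5 median, m3 and m7, r was 0.83. Malat1 and Kcnq1ot1 gave r = 0.58 and rho = 0.50 (permutation p = 0.0506 and 0.105, adjusted 0.101 and 0.209), and r = 0.46 without m1 and m3. Within groups their r was -0.04, so the relation did not hold within groups. Malat1 and Neat1 gave r = 0.41 and rho = 0.33 (permutation p = 0.194 and 0.298, adjusted 0.259 and 0.397), and r = 0.31 without m1 and m3. Malat1 and Gas5 gave r = 0.30 and rho = 0.15 (permutation p = 0.338 and 0.636, adjusted 0.338 and 0.636), and r = 0.56 without m1 and m3. None of the 4 passed 0.1 after adjustment.

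As a description over all 36 pairs of the 9 genes, the median r was 0.53 within the hosts, 0.41 within the long RNAs and 0.03 between the classes. Gas5 and Snhg12 were the closest pair (r = 0.91), and Kcnq1ot1 with Snhg6 the most opposed (r = -0.53). All pairs share libraries and their scaling.

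The genes most like each member in log2 CPM over the 12 tumors were sought among 9973 other genes with a mean of at least 10 CPM. For Malat1 they were Nisch (r = 0.93), Sec16a, a scaffold of the sites where vesicles leave the endoplasmic reticulum (0.91), and Ddx17, an RNA helicase (0.90). For Neat1 they were the glycolytic enzymes Gpi1 (0.98) and Pkm (0.91) and the motor adaptor Hook2 (0.94). Kcnq1ot1 was closest to Ttc14, Zscan26 (both 0.97) and Hltf, a helicase-like DNA repair factor (0.96). Among the hosts, Gas5 was closest to Kremen1, Zfp777 and Phrf1 (all 0.93), Snhg1 to Nudt5, Cct3, a chaperonin subunit (both 0.91), and Dtnb (0.91). Snhg3 was closest to Crls1 (0.91), Mgme1 and Rprd1b (both 0.89), and Snhg8 to Cavin3, Bola1 (both 0.96) and Dazap1 (0.95). Snhg6 was closest to Snhg7, another snoRNA host (0.92), then Cda and Ccdc9 (both 0.91). Snhg12 was closest to Noc2l (0.93), the ribosome biogenesis factor Wdr74 (0.92) and the nucleolar deubiquitinase Usp36 (0.92). With 12 tumors and this many genes such values are a description of these libraries.

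Related genes were read from lists chosen by function. Of 15 other noncoding snoRNA hosts 1 rose after VCR, Dancr, by 0.45 ± 0.12 on the log2 scale (SE, adjusted p = 0.0851 in edgeR), with a list median of 0.05. DESeq2 also called 1 of these 15 after VCR, beside 14.1% of its tested genes. An unadjusted p under 0.05 in edgeR was found for 4, beside 22.1% of all genes. Of 18 protein-coding hosts, most of them ribosomal protein and translation factor genes, 0 were called after any treatment by edgeR or DESeq2. An unadjusted p under 0.05 in edgeR was found for 1 after VCR, 0 after RCM1-NPFA and 0 after the combination. The shares of all genes at that p were 22.1%, 9.78% and 7.31%. The medians of the 18 hosts were -0.05 after VCR, -0.04 after RCM1-NPFA and -0.09 after the combination. Their largest values in the combination were Eef2, the translation elongation factor (-0.24 ± 0.12), and Rps3 (-0.16 ± 0.09). Of all 39 snoRNA hosts, coding or not and with the 6 above, 1 was called after VCR, or 2.56%, beside 5.55% of all genes. Of 12 other long noncoding RNAs 1 rose after VCR, Meg3, a maternally expressed RNA (1.29 ± 0.37, adjusted p = 0.0964 in edgeR), and the list median was -0.15. DESeq2 called 2 of these 12 after VCR, beside 14.1% of its tested genes. An unadjusted p under 0.05 in edgeR was found for 5, beside 22.1% of all genes. The edgeR calls of Dancr and Meg3 were made close to the threshold. Dancr was lost without m1, m2, m4, m5, m10, m11 or m12 (adjusted p up to 0.315 in edgeR), and Meg3 without m2, m3, m4, m5, m10, m11 or m12 (adjusted p up to 0.369). The Meg3 value was 0.85 without m5. With the spline of length Dancr stood at 0.21 (adjusted p = 0.450 in edgeR) and Meg3 at 1.20 (adjusted p = 0.140).

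Proteins that act with these RNAs were also read. Of 10 paraspeckle proteins 0 were called after any treatment by edgeR or DESeq2, 0 had an unadjusted p under 0.05, and Sfpq, which is needed for paraspeckles, had a log2 fold change of 0.15 ± 0.07 (SE) after VCR and 0.11 ± 0.07 after the combination. Of 10 nuclear speckle and splicing proteins edgeR called 2 after VCR, beside 5.55% of all genes, and DESeq2 called 3, beside 14.1%. An unadjusted p under 0.05 in edgeR was found for 4, beside 22.1%. After RCM1-NPFA edgeR called 0, and DESeq2 called 1, beside 1.5% of all its tested genes. The 2 edgeR calls after VCR were Srrm2 and Srsf2. Srrm2, a scaffold protein of the speckles where Malat1 resides, fell by 0.44 on the log2 scale (SE 0.08, adjusted p = 0.0651 in edgeR), and Srsf2, a splicing factor, rose by 0.25 (SE 0.07, adjusted p = 0.0998). With offsets for the average transcript length Srrm2 turned to 0.11 (adjusted p = 0.419 in edgeR), so its direction depends on the length offset. With the spline of length Srsf2 stood at 0.0953 (adjusted p = 0.629 in edgeR). Without m2, m4, m5 or m11 the Srrm2 call was lost (adjusted p up to 0.280 in edgeR), and the Srsf2 call held only without m8 or m9 among the fits that left out 1 tumor. Of 10 snoRNP proteins 0 were called by edgeR or DESeq2 after VCR (median 0.08). An unadjusted p under 0.05 in edgeR was found for 2, Nhp2 (0.32 ± 0.12) and Nop10 (0.28 ± 0.10), beside 22.1% of all genes. Naf1 stood at -0.16 ± 0.13, with an unadjusted p of 0.237 in edgeR. Of 10 nonsense-mediated decay factors edgeR called 0 after VCR and DESeq2 called 2, beside the 14.1% given above. An unadjusted p under 0.05 in edgeR was found for 4 (list median -0.15), beside the 22.1% of all genes given above. Values were below 0 for 7 of the 10, among them Smg1, the kinase that phosphorylates Upf1, at -0.27 ± 0.10. Upf1 itself went the other way, at 0.19 ± 0.08.

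In the imprinted domain around Kcnq1ot1, 9 of 10 genes could be tested and 0 were called by edgeR in any comparison with vehicle. DESeq2 called 1 after VCR, beside 14.1% of all its tested genes. An unadjusted p under 0.05 in edgeR was found for 2, beside 22.1% of all genes. After VCR all 9 had a value above 0 (median 0.32, and 0.00163 over all tested genes). Kcnq1ot1 itself stood at -0.54, and a link between its value and theirs was not tested. Kcnq1, Cdkn1c, Slc22a18, Ascl2 and Phlda2 were hardly expressed in these tumors. Kcnq1 stood at 1.11 to 2.82 TPM, Cdkn1c at 0.807 to 1.70 TPM, Slc22a18 at 0.0387 to 0.755 TPM and Ascl2 at 0.105 to 0.525 TPM, and Phlda2 had at most 1 read in a tumor. Ascl2 (1.25 ± 0.49) and Slc22a18 (1.22 ± 0.60) had the largest values after VCR, from at most 15 and 19 reads in a tumor. Among the better expressed neighbours, Tssc4 (50.7 to 65.5 TPM) had the smallest adjusted p-value of the list after VCR. Its log2 fold change was 0.35 ± 0.11 (SE, adjusted p = 0.104 in edgeR). Cd81 (0.07), Nap1l4 (0.11), Osbpl5 (0.01) and Tspan32 (0.06) had smaller values.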

How the data were processed

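Bulk RNA of 12 tumors in 4 groups of 3 was measured by poly-A RNA-seq. The authors assigned reads to RefSeq transcripts of GRCm38 with kallisto (version not given in the sources used here) and deposited, per transcript, estimated counts (not normalized and not whole where reads are shared), TPM values scaled to the same total in every tumor, and effective lengths. Fold changes of short genes carry the counting error of few reads, and the poly-A selection limits what is seen of RNAs without a tail.

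Here, estimated counts and TPM of all 120299 transcripts were summed to 38898 RefSeq genes, and estimated counts were rounded. Genes were filtered by edgeR's filterByExpr (minimum count 10), which left 17602. All 12 tumors entered 1 model with TMM factors in edgeR 4.0.16 (R 4.3.3), tested by quasi-likelihood, with Benjamini-Hochberg adjustment over all genes per comparison and a threshold of 0.1. The fit was tested on simulated data. Nothing in the labels says more of the replicates than 1 mouse each. DESeq2 1.42.0, limma-voom (limma 3.58.1), other scalings, offsets or a spline (5 degrees of freedom) for transcript length, fits of the groups compared, a threshold of 0.05, and leaving out tumors were alternatives. A term for Y-linked transcripts was added after seeing the data. Permutation tests used 100000 draws or all of them, in Python with scipy 1.17.1.

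The 9 genes and all lists were chosen with earlier results of these data known. Genes named beside the 9 were, by rule, the 3 most correlated with each, and from each list those called, or the 2 with the largest value in the combination where none was. Gm names of snoRNAs were matched by coordinates to GENCODE, and lists of markers were summed in TPM. A few other genes of the lists (Myf5, Cdh15, Myod1, Myog, Des, Nop10, Upf1, Kcnq1, Cdkn1c, Phlda2, Cd81, Nap1l4, Tssc4, Osbpl5 and Tspan32) were named after their values were seen. Some genes that the rule names are not reported here.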

Additional observations from a re-analysis of the deposited data

How the results depend on the processing

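With 3 tumors a group and calls close to the threshold, the 2 member calls after VCR depended on the processing. Of the 9 genes, 1 (Malat1) was called without a filter on low counts, with average transcript length offsets and in the fit of only the groups compared, and 0 with a spline of transcript length, without m5 and m9, with the term for Y-linked transcripts or at a threshold of 0.05. Without 1 tumor the number was 0 to 2. The number of genes called in all fell from 977 to 43 with the spline of length. For the interaction, 1 (Malat1) was called by DESeq2. The log2 fold change of Malat1 after VCR kept its direction in all fits run. The cause of these shifts was not tested.

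Values near 0 changed sign. With the spline of length they were -0.10 (Snhg3), -0.18 (Snhg6) and -0.0396 (Snhg8) after VCR, -0.0270 (Snhg3) after RCM1-NPFA, and -0.0169 for Malat1 in the combination against RCM1-NPFA. In the interaction they were 0.16 (Snhg1), 0.0285 (Snhg3), 0.0650 (Snhg6) and 0.18 (Snhg12). Without m5 and m9 they were -0.000334 (Snhg6 after VCR), 0.0192 (Gas5 after RCM1-NPFA), -0.0681 (Malat1 in the combination against RCM1-NPFA) and -0.0514 (Gas5 in the interaction). With average transcript length offsets Snhg6 after VCR was at -0.00287 and Srrm2 at 0.11.

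Leaving out 1 tumor also turned signs of values near 0 on the log2 scale. After VCR the ranges were -0.44 to 0.0745 (Neat1), -0.17 to 0.0295 (Snhg1), -0.0346 to 0.15 (Snhg6) and -0.20 to 0.0756 (Snhg12). After RCM1-NPFA they were -0.27 to 0.24 (Neat1), -0.16 to 0.0575 (Gas5), -0.14 to 0.0724 (Snhg1), -6.9e-05 to 0.15 (Snhg3), -0.12 to 0.0634 (Snhg6), -0.11 to 0.31 (Snhg8) and -0.22 to 0.0526 (Snhg12). After the combination they were -0.43 to 0.0794 (Neat1), -0.0946 to 0.0787 (Snhg3) and -0.26 to 0.0693 (Snhg8), and against RCM1-NPFA -0.0925 to 0.28 (Malat1) and -0.21 to 0.00763 (Kcnq1ot1). In the interaction they were -0.23 to 0.28 (Neat1), -0.0861 to 0.13 (Gas5), -0.17 to 0.0387 (Snhg1) and -0.18 to 0.0900 (Snhg12).

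The Neat1 isoform ratio of the combination turned to 0.0925 with a pseudocount of 1. Without 1 tumor the ratio ran from -0.24 to 0.36 after VCR, -0.67 to -0.0787 after RCM1-NPFA and -0.40 to 0.19 after the combination. The correlation of Malat1 with Kcnq1ot1 was -0.0404 within groups. That of Malat1 with Gas5 was 0.61 in log2 TPM, 0.0732 within groups and 0.56 without the 2 farthest tumors. No paired analysis was possible because every mouse has its own number and no number is shared between groups.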
